A study of Homo sapiens with 9 samples.

Results

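MYC, CD44, BTRC, CTNNB1, IGF2 and MAPK4 encode mRNAs that have been described as bound or protected by the RNA-binding protein IGF2BP1, and their abundance was followed in ES-2 cells depleted of IGF2BP1 or of the transcription factor SRF. The 6 genes were taken by their symbols from the 58174 genes of the tables, by a rule that uses no measured value, although they were chosen with earlier results of these data known. At least 1 read was counted for 5 of the 6, and 4 of the 6, MYC, CD44, BTRC and CTNNB1, were abundant enough to be tested. The ES-2 line was established from an ovarian cancer. Cells were transfected with control siRNAs (siC), with a siRNA pool directed at IGF2BP1 (siIGF2BP1) or with a siRNA pool directed at SRF (siSRF), and total RNA was sequenced after 72 h and removal of ribosomal RNA. Each condition had 3 libraries, all groups share the parental cells and the transfection, and the siC libraries serve as control for both depletions. The labels do not say whether the libraries came from separate cultures, so the tests measure the spread between these libraries.

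IGF2BP1 is an oncofetal protein that binds mRNAs in the cytoplasm and can shield them from decay, in part by reading N6-methyladenosine and in part by keeping miRNAs away from the transcript. For MYC the binding region lies in the coding sequence, where IGF2BP1 hinders endonucleolytic cleavage during translation, and for BTRC a coding-region site of miR-183 has been described as the protected element. The proteins encoded by the members are linked to each other, since BTRC is the ubiquitin ligase adaptor that marks β-catenin, the product of CTNNB1, for destruction, and MYC and CD44 have been described as target genes of β-catenin.

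The mature miRNAs are shown because protection from miRNAs is one of the described modes of IGF2BP1, with the seed (bases 2 to 8) in capitals. Their sequences are from RefSeq (GRCh38.p14), and the miRNAs themselves were not measured in these libraries.
hsa-miR-183-5p: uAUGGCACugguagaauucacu
hsa-let-7a-5p: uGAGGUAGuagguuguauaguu
The 7 letters that pair with the seed are GTGCCAT for miR-183-5p and CTACCTC for the let-7 family. They were searched on the sense strand of 1 canonical transcript per gene (GENCODE on GRCh38). No let-7 match was found in the transcripts of MYC, CD44, BTRC or CTNNB1, 1 was found in each of the transcripts of IGF2 and MAPK4, and 22.1% of 19688 coding transcripts hold at least 1. The transcript of BTRC, the member for which miR-183 was described, holds no miR-183-5p match, and 20.7% of coding transcripts hold at least 1. The matches of this miRNA in the other members are not reported here.
The letters GGAC, a core of the N6-methyladenosine consensus, occurred 15 times in the MYC, 27 times in the CD44, 26 times in the BTRC and 23 times in the CTNNB1 transcript. Per kilobase these are 4.03 for MYC, 4.97 for CD44, 4.32 for BTRC and 6.28 for CTNNB1, beside a median of 3.75 over all coding transcripts. A match of letters is a description of the sequence and not evidence of a site.

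Depth and the depletions were checked first. Libraries held 6421764 to 9416175 reads assigned to genes. IGF2BP1 mRNA was at 12.8, 13.5 and 12.1 FPKM (fragments per kilobase of gene, scaled to library size) in siC and at 4.18, 4.14 and 4.02 FPKM in siIGF2BP1, and SRF mRNA was at 13.6, 14.1 and 16.0 FPKM in siC and at 1.63, 1.36 and 1.42 FPKM in siSRF. SRF mRNA was also lower in siIGF2BP1, at 5.80, 5.42 and 6.80 FPKM, so SRF was reduced in both depletions, while IGF2BP1 mRNA was at 13.7, 14.6 and 14.3 FPKM in siSRF. The paralog IGF2BP2 had a mean of 28.5 FPKM ± 1.16 (SD, n = 3) in siC, 32.2 FPKM ± 1.78 in siIGF2BP1, and reached 47.4 FPKM ± 1.74 in siSRF, where its rise passed the test (log2 fold change 0.73, limma adjusted p = 0.000458). The paralog IGF2BP3 averaged 9.63, 11.8 and 12.55 FPKM in siC, siIGF2BP1 and siSRF. Its log2 fold changes of 0.30 (limma adjusted p = 0.0489) and 0.38 (limma adjusted p = 0.017) did not reach the threshold of 0.01. Of the markers of ovarian epithelium examined, KRT7, KRT8 and KRT18 were detected in every library, whereas PAX8, WT1, EPCAM and KRT19 did not exceed 0.262 FPKM in any library and MUC16 had no read. The immune markers PTPRC and CD3E and the adipocyte marker ADIPOQ had no read, whereas the monocyte marker CD14 had means of 0.106, 0.539 and 0.0821 FPKM in siC, siIGF2BP1 and siSRF and reached 0.945 FPKM. Of the endothelial markers, the cadherin CDH5 ranged from 7.53 to 16.1 FPKM, whereas PECAM1 ranged from 0.0424 to 0.387 FPKM. The mesenchymal markers VIM, CDH2 and FN1 averaged 1055, 25.4 and 8.25 FPKM in siC.

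On the scale of FPKM, which takes gene length into account, CD44 was the most abundant of the 6 mRNAs in siC, with a mean of 92.3 FPKM ± 1.30 (SD, n = 3). It stood at rank 355 of 19799 protein-coding genes. The order of genes depends on the lengths used for FPKM, which differ from those of the canonical transcripts. CTNNB1 followed at 84.3 FPKM ± 4.40 and rank 384, MYC at 55.9 FPKM ± 0.830 and rank 626, and BTRC at 6.43 FPKM ± 0.143 and rank 5736. The lowest CD44 library (91.5 FPKM) lay above the highest CTNNB1 library (88.7 FPKM) in siC, while in siIGF2BP1 the ranges of CD44 and CTNNB1 overlapped and the ratio of CD44 to CTNNB1 was 1.01 ± 0.0194 (SD, n = 3). Behind these levels stood 1113 to 2042 reads per library for MYC, 6227 to 9929 for CD44, 3490 to 5071 for CTNNB1 and 274 to 395 for BTRC.

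The levels of MYC, which encodes a transcription factor that promotes growth and ribosome production, were 56.2, 56.5 and 54.9 FPKM in siC. In siIGF2BP1 they were 56.5, 52.2 and 56.2 FPKM, and in siSRF they were 69.9, 74.6 and 73.7 FPKM. The siIGF2BP1 libraries overlapped with siC, and the siSRF libraries lay above both other groups. How large a share of all genes has groups that separate was not computed, for MYC or for the genes below. The gene lies on chromosome 8 at 127735434 to 127742951 of GRCh38 on the plus strand, and its canonical transcript has 3 exons, a coding length of 1365 bases and a 3′UTR of 1993 bases. The antisense lncRNA CASC11 overlaps it and stayed at or below 0.117 FPKM in every library.

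CD44, the cell surface receptor for hyaluronan, was at 93.8, 91.5 and 91.5 FPKM in siC. Its levels were 91.9, 86.0 and 89.7 FPKM in siIGF2BP1 and 107, 108 and 100.8 FPKM in siSRF. As for MYC, all siSRF libraries were higher than every library of the other groups, and the siIGF2BP1 range reached into that of siC. The gene spans 35138882 to 35232402 on the plus strand of chromosome 11, and its canonical transcript has 18 exons and a 3′UTR of 3069 bases. The antisense genes annotated within the CD44 locus, CD44-DT and CD44-AS1, had 0 to 2 reads per library and at most 0.236 FPKM. The counting is not stated to use strand.

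CTNNB1 was at 79.9, 84.2 and 88.7 FPKM in siC, which was the widest spread of this gene in any group. It was at 89.5, 86.3 and 90.5 FPKM in siIGF2BP1 and at 74.2, 75.0 and 75.8 FPKM in siSRF. Its order was thus the opposite of that of MYC and CD44, with every siSRF library below every siC library. The gene lies at 41194741 to 41260096 on the plus strand of chromosome 3, and its canonical transcript has 15 exons and a 3′UTR of 1101 bases.

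BTRC was at 6.60, 6.36 and 6.34 FPKM in siC, at 6.05, 5.83 and 5.96 FPKM in siIGF2BP1 and at 5.98, 6.55 and 5.62 FPKM in siSRF. All siIGF2BP1 libraries were below all siC libraries, whereas the siSRF libraries spread over both. The gene spans 101354033 to 101557321 on the plus strand of chromosome 10, and its canonical transcript has 15 exons and a 3′UTR of 4190 bases, the longest of the 6.

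IGF2, the growth factor whose mRNA gave the IGF2BP family its name, had 1 read in a single siC library (0.0242 FPKM) and no read in the other 8 libraries. MAPK4, an atypical MAP kinase, had no read in any of the 9 libraries. A count of 0 allows up to 3 reads, which per library is 0.0526 to 0.0726 FPKM for IGF2 and 0.0433 to 0.0598 FPKM for MAPK4, and this limit covers counting error only. The genes of the imprinted IGF2 region were at the same floor, with 1 read of H19 over all 9 libraries and none of IGF2-AS or INS-IGF2. Exons of INS-IGF2 overlap those of IGF2 on the same strand, and exons of a pseudogene overlap those of MAPK4. How the counting treated reads shared by overlapping genes is not stated, and its part in these low counts was not tested. Reads could therefore not be compared between conditions for IGF2 or MAPK4 at this depth, and no fold change is given for either.

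**Figure D1:**
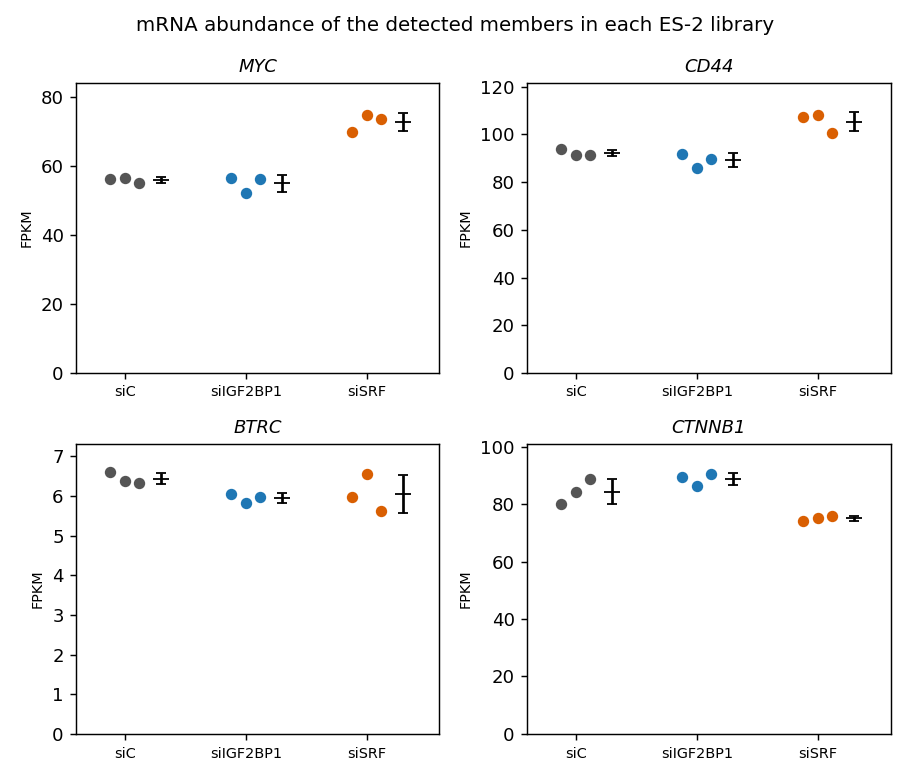
FPKM of MYC, CD44, BTRC and CTNNB1 (y axis, starting at 0) in each of the 3 libraries of siC, siIGF2BP1 and siSRF (points), with the group mean and SD as black bars. MYC and CD44 sit highest in siSRF, CTNNB1 sits lowest there, and the siIGF2BP1 points of MYC, CD44 and CTNNB1 overlap with siC.

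The first comparison asked whether reported target mRNAs lost abundance upon IGF2BP1 depletion. None of the 4 tested members passed the test, and their mean levels in siIGF2BP1 were between 92.5% and 105% of those in siC. Fold changes were computed on log2(FPKM + 0.1), a scale that understates the change of low genes, and a gene was called at a limma adjusted p of at most 0.01 over all genes tested. The log2 fold change of MYC was -0.02 (SE 0.045, limma adjusted p = 0.764), and the 95% interval of its difference was 91.1% to 106% of the siC level. For CD44 the log2 fold change was -0.05 (limma adjusted p = 0.498), with an interval of 90.2% to 104%. The log2 fold change of CTNNB1 was 0.08 (limma adjusted p = 0.385), with an interval of 96.8% to 115%.

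BTRC had the largest decrease of the 4, with a log2 value of -0.11 (SE 0.063, limma adjusted p = 0.301) and an interval of 83.4% to 103%. It was lower in 3 of 3 siIGF2BP1 libraries than in any siC library, and the two-sided exact permutation test gave p = 0.1, which is the lowest value possible with 3 libraries per group. The share of all genes separated in this way was not computed. Exact permutation p-values were 0.7 for MYC, 0.3 for CD44 and 0.2 for CTNNB1. Without correction for multiple testing, 0 of the 4 had a limma p under 0.05, and 0 of the 4 were called by limma-voom on recovered reads. In the same comparison 7.12% of the 22292 genes tested were called, 3.55% as higher and 3.57% as lower. At a minimum mean of 1 FPKM, 932 of 14263 genes were called as higher and 999 as lower. IGF2BP1 mRNA itself was at 32.1% of siC (interval 29.2% to 36.6%), so the intervals of the members describe a partial depletion.

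In the second comparison SRF was depleted. MYC rose, with a mean of 72.7 FPKM ± 2.53 (SD, n = 3) in siSRF, which was 130% of siC (interval 122% to 139%, log2 fold change 0.38, SE 0.040, limma adjusted p = 0.00158). The call was lost when siSRF replicate 2 was left out (log2 fold change 0.36, limma adjusted p = 0.0111). CD44 was at 114% of siC (interval 107% to 122%, log2 fold change 0.19, limma adjusted p = 0.0193) and did not reach the threshold, with all siSRF libraries above all siC libraries. CTNNB1 was at 89.0% of siC (interval 82.3% to 96.4%, log2 fold change -0.17, limma adjusted p = 0.0481), below siC in 3 of 3 libraries and also not called. For CD44 and CTNNB1 the exact permutation p was 0.1, the lowest possible, and the share of all genes separated in this way was not computed. BTRC had a log2 fold change of -0.09 (limma adjusted p = 0.484) and an interval of 82.5% to 107%.

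Thus 1 of the 4 tested members was called upon SRF depletion, beside 12.2% of 21857 genes (6.85% higher and 5.34% lower). Limma-voom on the recovered reads placed CD44 (adjusted p = 0.000207) and CTNNB1 (adjusted p = 0.00566) past the same threshold in the same directions. The size of the MYC change was close to the middle of all genes tested, with 50.5% of them changing by less. That ranking takes in all genes from a mean of 0.1 FPKM upward, without regard to their SE. At a minimum mean of 1 FPKM, 1783 of 14008 genes were called as higher and 1357 as lower.

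When siIGF2BP1 was compared directly with siSRF, 3 of the 4 tested members were called. MYC was lower in siIGF2BP1 (75.5% of the siSRF level, log2 difference -0.40, SE 0.047, limma adjusted p = 0.00113). CD44 was also lower (84.6%, log2 difference -0.24, limma adjusted p = 0.00725), and CTNNB1 was higher (118%, log2 difference 0.24, limma adjusted p = 0.00211). BTRC did not differ beyond its spread, with an interval of 86.8% to 112%. The background in this comparison was high, since 20.0% of 22311 genes were called, 8.82% as higher and 11.2% as lower. At a minimum mean of 1 FPKM, which all 4 members exceed, 2018 of 14195 genes were called as higher and 2741 as lower.

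The 3 calls differed in firmness. MYC was called with any 1 library left out. The CTNNB1 call was lost without siIGF2BP1 replicate 3 (limma adjusted p = 0.0105), siSRF replicate 1 (limma adjusted p = 0.0119) or siSRF replicate 2 (limma adjusted p = 0.0129). The CD44 call held only without siSRF replicate 3 (limma adjusted p = 0.00894) and was lost when any of the other 5 libraries was left out, with a highest limma adjusted p of 0.0327. It was also lost with libraries rescaled by median ratios (log2 difference -0.17, limma adjusted p = 0.0235).

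**Figure D2:**
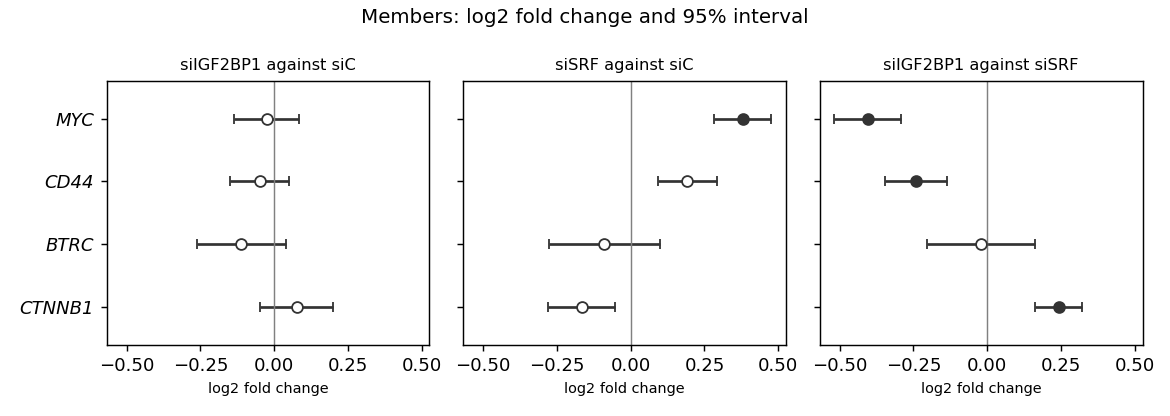
Log2 fold change (x axis) of MYC, CD44, BTRC and CTNNB1 in siIGF2BP1 against siC, siSRF against siC and siIGF2BP1 against siSRF, with 95% intervals as bars. Filled points were called at a limma adjusted p of at most 0.01, which applies to none of the 4 in the first panel, to MYC in the second and to MYC, CD44 and CTNNB1 in the third.

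Promoters are shown for CD44 and CTNNB1, because SRF binds the CArG box, a stretch of CC, a run of A or T, and GG. The promoters of MYC, the member called in siSRF, and of BTRC were not analysed here. Those shown cover 250 bases before to 50 bases after the start site (RefSeq, GRCh38.p14), and capitals mark a match to the CArG box with at most 1 mismatch on either strand. The CD44 promoter, chr11:35138921-35139220 on the plus strand, holds no match.
CD44 promoter: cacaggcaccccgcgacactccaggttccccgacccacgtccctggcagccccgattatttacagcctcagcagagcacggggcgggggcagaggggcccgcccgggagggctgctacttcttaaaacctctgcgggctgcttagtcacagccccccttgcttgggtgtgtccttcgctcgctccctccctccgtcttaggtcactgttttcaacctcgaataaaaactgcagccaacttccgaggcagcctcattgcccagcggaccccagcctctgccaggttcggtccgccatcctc
The CTNNB1 promoter, chr3:41199255-41199554 on the plus strand, holds a single match with 1 mismatch, which starts at position -7 from the start site.
CTNNB1 promoter: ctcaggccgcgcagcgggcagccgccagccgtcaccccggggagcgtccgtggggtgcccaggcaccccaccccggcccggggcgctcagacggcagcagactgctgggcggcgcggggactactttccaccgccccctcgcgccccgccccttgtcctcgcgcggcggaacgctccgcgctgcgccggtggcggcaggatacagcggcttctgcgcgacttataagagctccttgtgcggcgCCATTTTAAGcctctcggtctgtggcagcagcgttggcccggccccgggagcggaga
A CArG box without mismatch is present in 1.29% and one with at most 1 mismatch in 18.9% of 35116 promoters of this length. The match describes the letters in the window and does not show binding of SRF.

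The genes through which MYC acts were examined next, from a list of 24 described MYC target genes of which 23 were tested in each comparison. Upon IGF2BP1 depletion 8 of the 23 fell and 1 rose, and upon SRF depletion 12 rose and 0 fell by limma (2 lower genes had an unadjusted p under 0.05, and limma-voom called 2). Over all genes, 3.57% were called as lower and 3.55% as higher in siIGF2BP1, and 6.85% as higher and 5.34% as lower in siSRF. These shares take in genes of low level, and at a minimum mean of 1 FPKM more genes were called although fewer were tested. The median log2 fold change of the list was -0.35 in siIGF2BP1 and 0.36 in siSRF, beside medians over all genes of 0.02 and 0.01, and these medians over all genes also apply to the lists that follow. MYC mRNA itself did not pass the test in siIGF2BP1, where 19 of the 23 had a negative fold change, and 16 of the 23 had a positive fold change in siSRF.

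ODC1, the rate-limiting enzyme of polyamine synthesis, was at 128, 125 and 145 FPKM in siC, at 59.7, 65.9 and 68.7 FPKM in siIGF2BP1 and at 280.5, 268 and 269.9 FPKM in siSRF. Its groups did not overlap, and it was called in both depletions (log2 fold change -1.03, limma adjusted p = 0.000853, and 1.05, limma adjusted p = 0.000399). TFRC, the transferrin receptor, showed the same order, with means of 71.7 FPKM (siC), 49.4 FPKM (siIGF2BP1) and 95.8 FPKM (siSRF). RRP9, a protein of the U3 particle that processes ribosomal RNA, had means of 35.0, 23.7 and 50.3 FPKM in siC, siIGF2BP1 and siSRF. NCL and PA2G4, both involved in ribosome production, fell in siIGF2BP1 by 0.36 and 0.45 on the log2 scale, and GNL3, a nucleolar GTPase, rose by 0.58 in siSRF.

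Directly compared, 15 of the 23 were lower and 2 were higher in siIGF2BP1 than in siSRF, with a median log2 difference of -0.70. ODC1 (-2.08), TFRC (-0.95), RRP9 (-1.09) and DKC1 (-0.80), the pseudouridine synthase of small nucleolar particles, were among the lower genes. The counts against siC rested on the full set of libraries. Leaving out 1 library at a time left 2 to 4 genes called as lower in siIGF2BP1 and 3 to 11 called as higher in siSRF, the count in siSRF being 3 without siSRF replicate 2, whereas 14 to 16 were called as lower in the direct comparison. The list holds genes that many growth signals raise, and the part of MYC in their change was not tested.

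**Figure D3:**
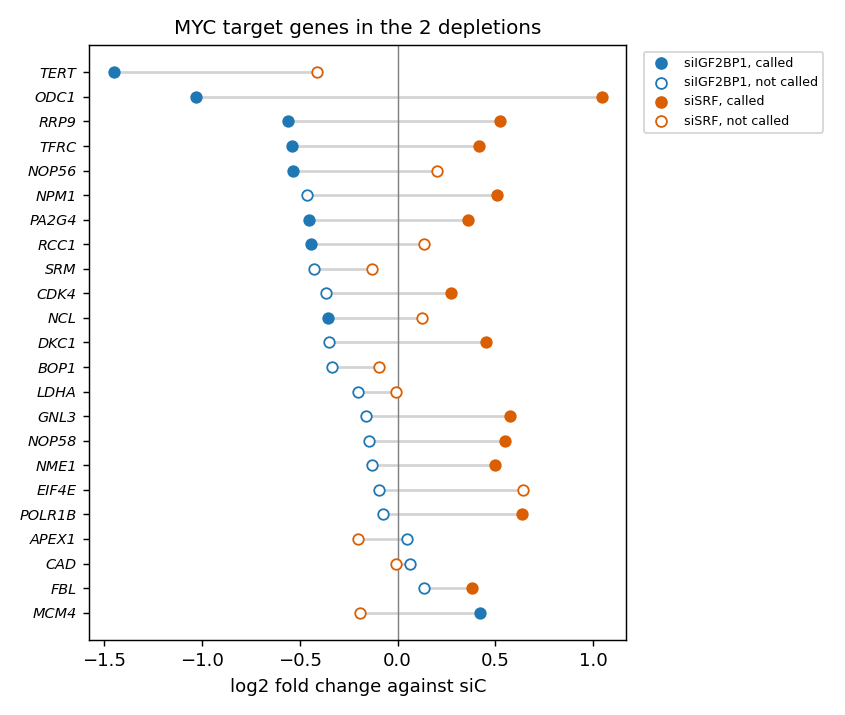
Log2 fold change against siC (x axis) of the 23 tested MYC target genes in siIGF2BP1 (blue) and siSRF (orange), ordered by the siIGF2BP1 value, with filled points for genes called at a limma adjusted p of at most 0.01. Most blue points lie left of 0, with 8 called as lower, and most orange points lie right of 0, with 12 called as higher.

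Among 19 tested partners and regulators of MYC, 1 rose and 2 fell upon IGF2BP1 depletion, and 3 rose and 2 fell upon SRF depletion, with list medians of 0.00 and 0.12. MXD4, which competes with MYC for the partner MAX and represses its targets, rose in siIGF2BP1 (log2 fold change 0.96, limma adjusted p = 0.00186) and fell in siSRF by 0.89 on the log2 scale (limma adjusted p = 0.00686). The call in siSRF was lost after correction for GC content and length (log2 fold change -0.62, limma adjusted p = 0.0181). Its mean level was 4.08 FPKM in siC, 8.03 in siIGF2BP1 and 2.17 in siSRF. SYNCRIP, an RNA-binding protein found with IGF2BP1 on the MYC mRNA, changed the other way, with log2 fold changes of -0.28 and 0.32, of which the second was also lost with that correction (0.17, limma adjusted p = 0.0294), and YBX1, another protein of this complex, rose in siSRF by 0.53. ELAVL1, which stabilizes AU-rich mRNAs, fell in siIGF2BP1 by 0.45 on the log2 scale.

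Of the named neighbours of MYC, MAX had mean levels of 9.16, 8.65 and 12.1 FPKM in siC, siIGF2BP1 and siSRF and was called in the direct comparison alone (log2 difference -0.49, limma adjusted p = 0.00456). FBXW7, the ligase adaptor for MYC protein, and the neighbouring lncRNA PVT1 were not called in any of the 3 comparisons. The paralogs MYCN and MYCL had no read in any library. In the direct comparison 2 of the 19 were higher and 8 lower in siIGF2BP1, with MXD4 at a log2 difference of 1.85 and MXD1 at -1.04.

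β-Catenin is kept low by a destruction complex and by the BTRC ubiquitin ligase, and the mRNAs of this machinery were counted in both depletions. Of 15 turnover genes tested upon IGF2BP1 depletion, 1 fell and 0 rose by limma (2 higher genes had an unadjusted p under 0.05, and limma-voom called 0), and of 14 tested upon SRF depletion 5 rose and 2 fell. The list medians were -0.12 and 0.17, and the share called in siIGF2BP1, 6.67%, was close to the 7.12% of all genes, which take in genes of low level. The gene that fell was CSNK1A1, the priming kinase of β-catenin, which was at 30.1, 32.4 and 32.0 FPKM in siC and at 21.7, 21.5 and 21.9 FPKM in siIGF2BP1. In siSRF CSNK1A1 was at 48.3, 45.6 and 47.3 FPKM, so that its groups were separate in both directions (log2 fold change -0.54, limma adjusted p = 0.00108, and 0.58, limma adjusted p = 0.00067).

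FBXW11, the paralog of BTRC with the same substrates, was at 25.1, 23.9 and 26.9 FPKM in siC, at 20.5, 23.6 and 22.1 FPKM in siIGF2BP1 and at 39.9, 39.0 and 41.0 FPKM in siSRF. It was thus more abundant than BTRC in every library and rose upon SRF depletion (log2 fold change 0.66, limma adjusted p = 0.000744), whereas it was not called upon IGF2BP1 depletion (log2 fold change -0.20, limma adjusted p = 0.13). RBX1, the RING subunit of the ligase, rose in siSRF (log2 fold change 0.65). GSK3B, the kinase that marks β-catenin, and CTNNBIP1, an inhibitor of its binding to TCF factors, fell in siSRF by 0.49 and 0.64 on the log2 scale. Directly compared, 7 of the 15 were lower and 2 higher in siIGF2BP1, including CSNK1A1 (-1.11), FBXW11 (-0.85), TNKS2 (-0.80) and CTNNBIP1 (0.80).

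Of 12 tested partners of β-catenin, CDH2 (N-cadherin, which holds β-catenin at the membrane) was the only gene called upon IGF2BP1 depletion, with means of 25.4 FPKM in siC and 40.1 FPKM in siIGF2BP1 (log2 fold change 0.66, limma adjusted p = 0.00282). CTNNA1 (α-catenin) was the only one called upon SRF depletion and fell by 0.39 on the log2 scale (limma adjusted p = 0.00301). In the direct comparison CDH2, CTNNA1 and CTNND1 (p120-catenin), all components of adherens junctions, were higher in siIGF2BP1 and 0 were lower by limma (0 at an unadjusted p under 0.05 and 0 by limma-voom). The medians of the partners were 0.08 in siIGF2BP1 and -0.29 in siSRF. JUP, the close paralog of CTNNB1, had 4 reads in a single siSRF library and none elsewhere. Among the target genes of β-catenin 0 of 10 were called upon IGF2BP1 depletion by limma (1 higher and 1 lower gene had an unadjusted p under 0.05, and limma-voom called 1 of each), and 1 of 8, the secreted WNT inhibitor DKK1, rose upon SRF depletion (165 FPKM in siC, 235 FPKM in siSRF, log2 fold change 0.51, limma adjusted p = 0.000922). Directly compared, 3 of 10 were lower in siIGF2BP1, DKK1 (-0.32) and ZNRF3 (-0.58) among them.

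**Figure D4:**
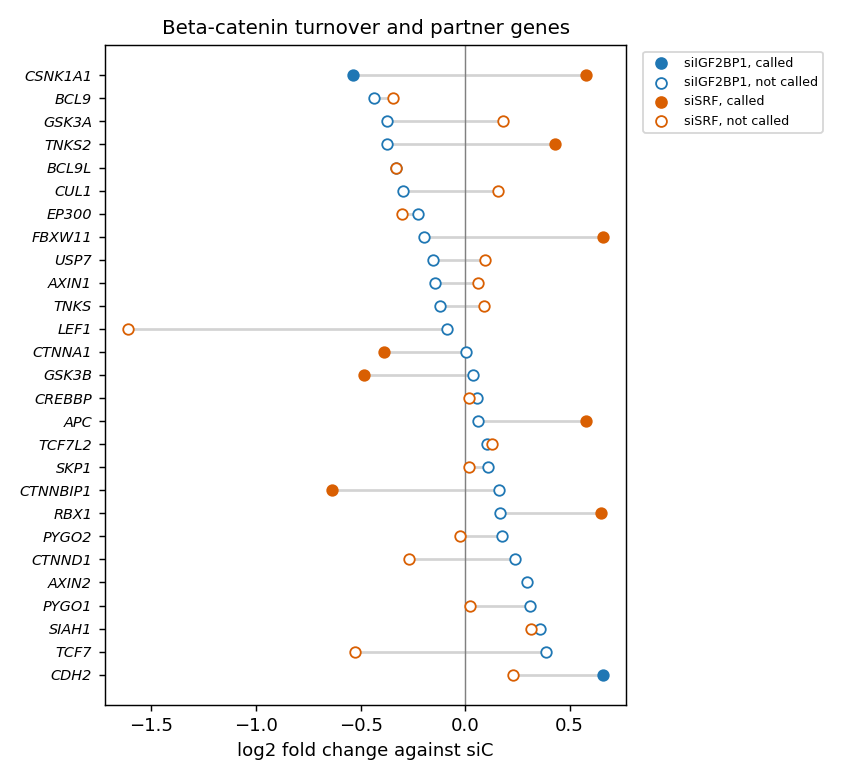
Log2 fold change against siC (x axis) of the tested genes of β-catenin turnover and of its partners in siIGF2BP1 (blue) and siSRF (orange), with filled points for genes called at a limma adjusted p of at most 0.01. CSNK1A1 was called in opposite directions, CDH2 was called in siIGF2BP1 alone, and FBXW11 and RBX1 lie to the right and CTNNBIP1, GSK3B and CTNNA1 to the left of 0 as called genes of siSRF.

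The other substrates and subunits of the BTRC ligase gave 2 higher and 2 lower genes among 17 tested upon IGF2BP1 depletion, with a list median of -0.15. PDCD4, an inhibitor of translation, rose (log2 fold change 0.72) and so did WWTR1, the TAZ coactivator (log2 fold change 0.54), while its paralog YAP1 fell by 0.56 and CLSPN, a checkpoint adaptor, fell by 0.47 on the log2 scale. CLSPN also fell in siSRF by 0.47. In siSRF 2 of the 17 rose, namely FBXW11 and RBX1, and 1 fell (list median 0.07), and in the direct comparison 1 was higher and 6 were lower in siIGF2BP1.

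Ligands, linkers and proteases of CD44 were called in both depletions, whereas CD44 itself was called in neither. Of 17 tested upon IGF2BP1 depletion 2 rose and 4 fell, and of 16 tested upon SRF depletion 4 rose and 0 fell by limma (3 lower genes had an unadjusted p under 0.05, and limma-voom called 1). The list medians were -0.24 and 0.05. EZR (ezrin), which links CD44 to actin, was at 78.9, 79.4 and 88.1 FPKM in siC, at 57.7, 51.4 and 54.9 FPKM in siIGF2BP1 and at 81.0 FPKM in each siSRF library. EZR fell upon IGF2BP1 depletion by 0.59 on the log2 scale (limma adjusted p = 0.00271), and its related linker MSN (moesin) had a log2 fold change of -0.33 (limma adjusted p = 0.0225), which did not pass.

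MMP14 and ADAM17, proteases that can cleave CD44 from the surface, moved apart in siIGF2BP1, where MMP14 fell by 0.73 on the log2 scale and ADAM17 rose with a log2 fold change of 0.91. In siSRF both rose, MMP14 by 0.36 and ADAM17 by 0.49. SRGN (serglycin), a proteoglycan ligand of CD44, averaged 223 FPKM in siC, 136 in siIGF2BP1 and 433 in siSRF, and was called in both. VCAN (versican), which binds hyaluronan, rose in siIGF2BP1 with a log2 fold change of 1.30. HAS2, a hyaluronan synthase, was low at 0.334 to 0.726 FPKM and was not called in any comparison. In the direct comparison 4 of 18 were higher and 5 were lower in siIGF2BP1.

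Although IGF2 mRNA was at the floor, its receptors were present. In siC, siIGF2BP1 and siSRF the means were 3.34, 3.59 and 2.78 FPKM for IGF1R and 9.55, 10.3 and 8.21 FPKM for IGF2R, and neither was called in any comparison. Of 11 tested genes of IGF2 signalling and binding, 1 fell upon IGF2BP1 depletion, the adaptor IRS1, by 0.39 on the log2 scale, and the list median was 0.10. Upon SRF depletion, with a list median of -0.21, 1 rose, which was IGF2BP2, and 2 fell, IRS2 by 0.79 and PLAGL1, a transcription factor of the imprinted network, by 1.08. IGFBP6, which binds IGF2 with preference, was higher in siIGF2BP1 than in siSRF (log2 difference 1.36, limma adjusted p = 0.000144), with 3 genes of this list higher and 1 lower there.

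The paralog of MAPK4, MAPK6, was expressed, at 23.1, 20.7 and 25.6 FPKM in siC, at 22.4, 25.3 and 23.8 FPKM in siIGF2BP1, and at 32.4, 31.0 and 29.8 FPKM in siSRF. It was not called against siC in either depletion (log2 fold change 0.04 and 0.43) and was lower in siIGF2BP1 than in siSRF (log2 difference -0.38, limma adjusted p = 0.00346). MAPKAPK5, the kinase activated by both, was at 4.17 FPKM in siC and was not called in any comparison. MAPKAPK3 averaged 24.5 FPKM in siC, 12.2 in siIGF2BP1 and 15.5 in siSRF and fell in both. Of the 10 genes tested on this list, 1 rose and 1 fell in siIGF2BP1, 2 rose and 2 fell in siSRF and 2 were lower in the direct comparison, with list medians of -0.13, 0.13 and -0.25.

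The members were set beside 13 tested genes of a list of other RNAs reported as IGF2BP1 targets. In siIGF2BP1, 3 of the 13 fell and 2 rose, a share of 38.5% beside 7.12% of all genes, with a median log2 fold change of -0.36. SRF fell by 1.26, PDLIM7 by 0.54 and FOXK1 by 0.36 on the log2 scale, and these 3 genes belong to the results of the study on these libraries and so are no independent evidence for the list. The PDLIM7 call was lost after correction for GC content and length (log2 fold change -0.38, limma adjusted p = 0.0318). ACTB, the first transcript described for this protein family and a target gene of SRF, was called in siSRF, where it fell by 1.44 on the log2 scale. In siIGF2BP1 ACTB was also lower, at 505.4 FPKM ± 62.1 (SD, n = 3) beside 713.5 FPKM ± 33.1 in siC, but was not called. In siSRF 2 of the 13 rose and 6 fell (61.5% beside 12.2% of all genes, list median -0.38), and in the direct comparison 3 were higher and 1 was lower in siIGF2BP1. SRF, the target of the siRNA pool, is counted among the 6 and among the 3, so these counts are in part fixed by the design. The 6 also hold ACTB, PDLIM7 and FOXK1, and the paper presents PDLIM7 and FOXK1 as target genes of SRF. The shares of all genes take in genes of low level. At a minimum mean of 1 FPKM, 932 of 14263 genes were called as higher and 999 as lower in siIGF2BP1. In siSRF these were 1783 and 1357 of 14008 genes. MAPT, an mRNA bound by the protein in neurons, did not exceed 0.0184 FPKM in any library.

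The genes whose pattern over the 9 libraries was most like that of a member were found by Pearson's correlation of log2(FPKM + 0.1) among 10380 protein-coding genes, and the values describe libraries that share their groups. The closest to MYC were the keratin KRT18 (r = 0.988), the lipid kinase PIP5K1A (r = 0.987) and the homeobox gene IRX3 (r = 0.986). KRT18, for example, averaged 43.4 FPKM in siC, 41.8 in siIGF2BP1 and 81.7 in siSRF. The closest to CD44 were MRPL39 (r = 0.987), SLIRP (r = 0.979) and NME1 (r = 0.978), of which MRPL39 and SLIRP encode mitochondrial proteins. For CTNNB1 they were the RNA-editing enzyme ADAR (r = 0.988) and KDELR3 (r = 0.982), and for BTRC, with lower values, ATP6V1F (r = 0.897), BLVRA (r = 0.876) and BUD13 (r = 0.875).

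Among the members themselves, MYC and CD44 ran together (r = 0.941), and both ran against CTNNB1 (r = -0.864 for MYC and -0.884 for CD44). BTRC followed none of them, with r between -0.123 and 0.113. The ratio of the FPKM of CTNNB1 to that of MYC was 1.51 ± 0.0978 (SD, n = 3) in siC, 1.62 ± 0.0356 in siIGF2BP1 and 1.03 ± 0.0289 in siSRF. FPKM divided by 6614 bases for CTNNB1 and 3001 for MYC, whereas the canonical transcripts have 3661 and 3721 bases. The level of this ratio thus depends on the lengths used, whereas its change between groups does not.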

How the data were processed

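The 9 libraries of ES-2 total RNA, 3 per condition, were grouped by the titles of the samples. Per the paper's methods and the submitters' processing notes, the authors clipped reads with cutadapt 1.14, aligned them to GRCh38 with HISAT2 2.1.0, counted them on Ensembl genes with featureCounts 1.5.3 and scaled them with edgeR 3.18.1 (TMM). The deposited values are FPKM per library in 2 tables, each with 3 columns of the authors' own comparison (log2 ratio, FDR and p-value), which were not used. Both tables hold the same siC values. FPKM times gene length gave whole reads (within 0.01) for 100% of values.

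Each comparison was fitted on the 6 libraries concerned with limma 3.58.1 (lmFit and eBayes with trend, R 4.3.3) on log2(FPKM + 0.1), keeping genes whose mean reached 0.1 FPKM, with Benjamini-Hochberg adjustment over all these genes. The authors' edgeR test needs counts, so limma was the main test and limma-voom on the recovered reads an alternative. Single members were also given a two-sided exact permutation test. The members and lists were chosen with earlier results of these data known. Genes named beyond the members are fixed neighbours, up to 4 called genes with the smallest p per list and comparison at 1 FPKM or more, and, of the 3 genes most like each member, those reported. The fits were also run on reads simulated for siC and siIGF2BP1 with the same set spread for every gene. That spread was not taken from these libraries, so the simulation does not test the calls reported here. Annotation is from GENCODE on GRCh38, later than the one used for counting, and sequences are from RefSeq. Small RNA, protein and decay were not analysed here. A few genes and a sequence window that these rules name are not reported here.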

Additional observations from a re-analysis of the deposited data

Results flagged for a closer look

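MYC, CD44 and CTNNB1 are set apart because their response differed between the depletions, as the direct comparison of siIGF2BP1 with siSRF tested it. The log2 difference was -0.40 for MYC (limma adjusted p = 0.00113), -0.24 for CD44 (limma adjusted p = 0.00725) and 0.24 for CTNNB1 (limma adjusted p = 0.00211). In each case all 3 siIGF2BP1 libraries lay on the same side of all 3 siSRF libraries, for which the exact permutation p was 0.1, the lowest possible. The share of all genes separated in this way was not computed, and 20.0% of 22311 genes were called in this comparison. With 1 library left out, the CD44 call held only without siSRF replicate 3. SRF mRNA was at 6.01 FPKM in siIGF2BP1 and 1.47 FPKM in siSRF, and IGF2BP2 mRNA at 32.2 and 47.4 FPKM, and the part of either in these differences was not tested.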

How the results depend on the processing

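Upon IGF2BP1 depletion none of the 4 tested members was called under any alternative. The MYC value turned positive after removal of trends along GC content and length, a correction chosen after seeing the data (0.0042), and ranged from -0.045 to 0.012 with 1 library left out. BTRC against siSRF turned positive with median-ratio rescaling (0.048), with the correction for GC content and length (0.023) and without siSRF replicate 2 (range -0.072 to 0.037 with 1 library left out). With 1 library left out, MYC in siSRF ranged from 0.36 to 0.41, and against siSRF the siIGF2BP1 values ranged from -0.27 to -0.21 for CD44 and from 0.23 to 0.26 for CTNNB1. Upon SRF depletion CD44 passed with limma-voom (0.19) and with all 9 libraries in one fit (0.19), and CTNNB1 passed with limma-voom (-0.17). Against siSRF the CD44 call was lost without a filter (-0.24) and with rescaling (-0.17). The cause was not tested.

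Deviations from the group means were not shared by same-numbered libraries (correlations from -0.0438 to 0.0186), so numbers do not pair them. With the replicate number as a block the calls of MYC in siSRF (0.38, limma adjusted p = 0.015) and of MYC (-0.40), CD44 (-0.24) and CTNNB1 (0.24) against siSRF were lost. The block called 60 higher and 31 lower genes in siIGF2BP1, 257 and 244 in siSRF and 872 and 1203 in the direct comparison. Over the pathway lists together these were 0 and 2, 6 and 4, and 12 and 26, where the fit without the block called 9 and 22, 29 and 16, and 20 and 46. Among the MYC target genes the block called 0 higher and 1 lower in siIGF2BP1, 3 higher in siSRF, and 1 higher in the direct comparison.

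Limma-voom on the recovered reads called 1914 higher and 1891 lower genes in siIGF2BP1, 2780 and 2343 in siSRF, and 3282 higher in the direct comparison. On the lists it called 17 higher and 48 lower genes in siIGF2BP1 and 25 lower in siSRF, with 13 MYC target genes lower in siIGF2BP1 and 2 lower in siSRF. With all 9 libraries in one fit, 1309 genes and 39 listed genes were lower in siIGF2BP1.

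With 1 library left out, genes called ranged from 212 to 420 higher and 224 to 329 lower in siIGF2BP1 (792 and 796 with all libraries), from 464 to 1123 higher and 482 to 673 lower in siSRF (1498 and 1167), and from 1214 to 1455 higher and 1577 to 1951 lower in the direct comparison (1968 and 2492). Listed genes ranged from 2 to 6 higher and 8 to 11 lower in siIGF2BP1 and from 8 to 27 higher and 8 to 13 lower in siSRF. MYC target genes ranged from 0 to 1 higher and 2 to 4 lower in siIGF2BP1, from 3 to 11 higher and 0 to 1 lower in siSRF, and were 1 higher in the direct comparison. Fewer samples lower these counts by construction. Of the calls examined for neighbouring genes, 11 of 23 in siIGF2BP1, 13 of 29 in siSRF and 29 of 31 in the direct comparison held whichever library was left out. The 11 were ADAM17, CSNK1A1, IGF2BP1, MAPKAPK3, MMP14, ODC1, PDCD4, SRF, SRGN, TFRC and YAP1. The 13 were ACTB, CSNK1A1, CTNNBIP1, DKK1, FBXW11, GNL3, IGF2BP2, IRS2, MAPKAPK3, ODC1, SRF, SRGN and TFRC. Other calls against siC examined there were lost without at least 1 library. Median-ratio rescaling turned the balance of calls to 1303 higher and 1393 lower in siSRF and to 2351 and 2102 in the direct comparison.

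Of the neighbours, values near 0 changed sign with the correction for GC content and length for MAPK6 in siIGF2BP1 (-0.063) and EZR in siSRF (0.028). With 1 library left out they also did so for EZR in siSRF (-0.046 to 0.033) and, in siIGF2BP1, for IGF2R (-0.019 to 0.18), PVT1 (-0.092 to 0.077) and MAPK6 (-0.035 to 0.12). None of these was called. IGF2 and MAPK4 were at the floor and had no alternative with a value.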
